A study of Homo sapiens with 8 samples.

Results

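The mitochondrial genome encodes 7 subunits of respiratory complex I, namely MT-ND1, MT-ND2, MT-ND3, MT-ND4, MT-ND4L, MT-ND5 and MT-ND6. These 7 genes were picked by name from the 60664 gene identifiers counted in a selective ribosome profiling experiment, and all 7 were present in the count table of each cell line. Selective ribosome profiling counts the mRNA fragments that ribosomes shield from nuclease, in a total ribosome pellet (input) and in the part of the pellet that a tagged chaperone brings down (pulldown). The cells were U-2 OS, a human osteosarcoma line. In the TRiC line HaloTag was inserted by genome editing into CCT4, a subunit of the chaperonin TRiC, and in the PFD line it was fused to PFD4 (labelled PFDN4-Halo), a subunit of its co-chaperone prefoldin. Both lines were grown from single clones. All 4 groups (an input and a pulldown for TRiC and for PFD) had 2 biological replicates. The groups shared the same preparation, with cycloheximide at 100 µg per mL for 1 min, the crosslinker DSP at 2 mM for 30 min and RNase I at 500 U per mg, and no line without a HaloTag was among the libraries analysed here. Each chaperone was tagged in a line of its own, so tagged chaperone, clone and library preparation cannot be told apart between the lines.

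Complex I (NADH:ubiquinone oxidoreductase) feeds electrons from NADH into the respiratory chain and pumps protons across the inner mitochondrial membrane. Its mitochondrially encoded subunits are hydrophobic proteins of the membrane arm, while the subunits that bind NADH, flavin and iron-sulphur clusters are encoded in the nucleus and imported. MT-ND2, MT-ND4 and MT-ND5 are the antiporter-like proton-pumping subunits, MT-ND1 sits at the junction with the peripheral arm and forms part of the ubiquinone site, and MT-ND3, MT-ND4L and MT-ND6 fill the membrane arm next to it. All 7 are made in the mitochondrial matrix by mitochondrial ribosomes, on mRNAs with almost no leader sequence. TRiC and prefoldin act in the cytosol, and cycloheximide arrests cytosolic but not mitochondrial ribosomes.

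The first 30 bases of each coding sequence are shown because translation of each member starts there, in part at codons that cytosolic ribosomes rarely use. Capitals mark the start codon, which is ATA or ATT in 4 of the 7 genes and ATG in MT-ND4, MT-ND4L and MT-ND6. Sequences are from hg38, on the plus strand of the mitochondrial chromosome (M), except for MT-ND6, which is read from the minus strand.
MT-ND1, M:3307-3336: ATAcccatggccaacctcctactcctcatt
MT-ND2, M:4470-4499: ATTaatcccctggcccaacccgtcatctac
MT-ND3, M:10059-10088: ATAaacttcgccttaattttaataatcaac
MT-ND4, M:10760-10789: ATGctaaaactaatcgtcccaacaattata
MT-ND4L, M:10470-10499: ATGcccctcatttacataaatattatacta
MT-ND5, M:12337-12366: ATAaccatgcacactactataaccacccta
MT-ND6, M:14644-14673: ATGatgtatgctttgtttctgttgagtgtg

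Some features of the sequence bear on what a gene count can hold. MT-ND4L (M:10470-10766) and MT-ND4 (M:10760-12137) lie on 1 bicistronic mRNA and overlap by 7 bases, shown in capitals with 15 bases on each side. Reads that cover these bases belong to both genes, and gene counting leaves such reads out.
MT-ND4L/MT-ND4, M:10745-10781: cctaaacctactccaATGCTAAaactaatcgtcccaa
MT-ND5 (M:12337-14148) and MT-ND6 (M:14149-14673) meet end to end on opposite strands. The junction is shown on the plus strand with the last 15 bases of MT-ND5 in capitals, followed by bases that are antisense to MT-ND6.
MT-ND5/MT-ND6, M:14134-14163: CTCCTAATCACATAAcctattcccccgagc
The other members are MT-ND1 (M:3307-4262), MT-ND2 (M:4470-5511) and MT-ND3 (M:10059-10404). Coding lengths ran from 98 codons in MT-ND4L to 603 in MT-ND5. Whether counting used strand is not given in the sources used here, so reads from MT-ND6 cannot be told apart from RNA of the opposite strand.

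The libraries held between 9523128 and 32637658 counts. Every member had at least 315 counts in each library. Whether counting error or the spread between replicates limited each value was not tested. Of the osteosarcoma markers, COL1A1 (2873 to 5411 CPM), SPARC and VIM were abundant in all 8 libraries, RUNX2 lay between 29.2 and 65.9 CPM, and COL1A2 was at 1.98 CPM or less. ALPL ran from 2.46 to 42.7 CPM. The leukocyte marker PTPRC reached at most 0.198 CPM, CD3E had no counts, the hepatocyte markers ALB and APOA1 stayed at or under 1.73 CPM, and of the epithelial and neuronal markers EPCAM was highest at 18.2 CPM. CPM are counts scaled to 1000000 of the library total after TMM scaling, which takes most genes as unchanged within a line. Changes in a CPM value are therefore changes in a gene's share of the ribosome fragments. Fewer mitochondrial ribosomes in a pellet and fewer fragments per mitochondrial ribosome cannot be told apart in such a share.

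In both inputs the members were unequally covered per codon, with MT-ND3 at the top. Its density was 2.31 and 2.61 CPM per codon in TRiC inputs and 2.14 and 2.13 in PFD inputs. MT-ND5 came next in both lines, at 1.81 and 2.13 CPM per codon in the TRiC and 1.59 and 1.77 in PFD inputs. These were the densest members in all 4 inputs, and their replicate ranges did not overlap within a line. The order below them differed between the lines. In the TRiC inputs it ran MT-ND1 (mean 0.978 CPM per codon), MT-ND4 (0.852), MT-ND4L (0.697), MT-ND6 (0.550) and MT-ND2 (0.433), and no neighbours overlapped. PFD inputs began, below MT-ND5, with MT-ND6 (1.18), then MT-ND4L (0.919), MT-ND1 (0.802), MT-ND2 (0.782) and MT-ND4 (0.605), with MT-ND1 and MT-ND2 overlapping. The highest density was 5.68 times the lowest in the TRiC and 3.53 times in PFD inputs. MT-ND4 and MT-ND4L, which share an mRNA, were at 0.852 ± 0.0546 and 0.697 ± 0.0984 CPM per codon in TRiC inputs (SD, n = 2) and at 0.605 ± 0.0573 and 0.919 ± 0.0245 in PFD inputs (SD, n = 2). MT-ND4 was thus the denser of the pair in TRiC inputs, and MT-ND4L in PFD inputs.

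**Figure D1:**
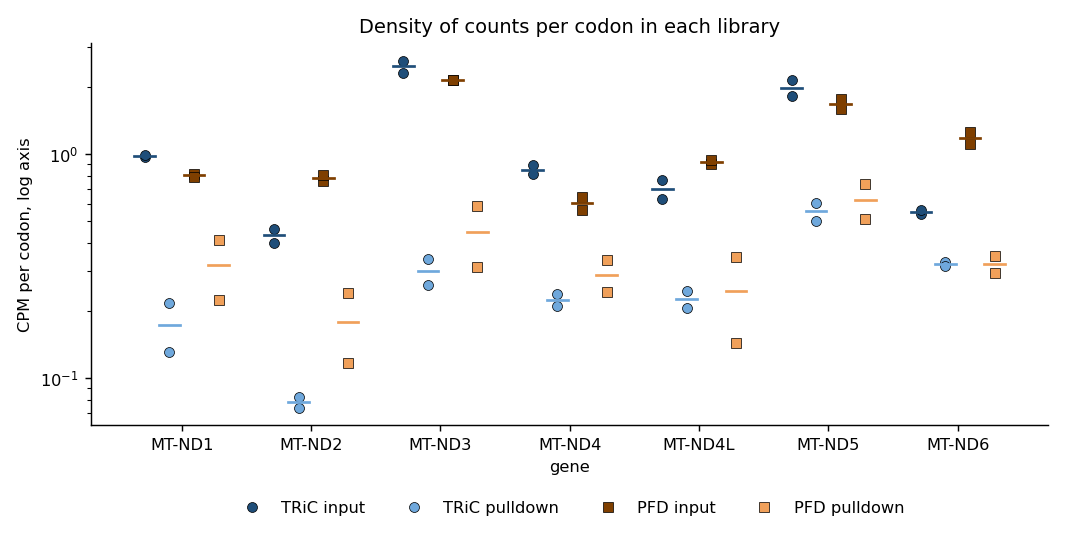
CPM per codon (log axis) of each member in every library; points are libraries, short lines are means of the 2 replicates, blue is the TRiC and brown the PFD line, dark is input and light is pulldown. MT-ND3 and MT-ND5 are the densest members in all inputs, and MT-ND5 has the highest mean in both pulldowns.

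All 7 members had a smaller share of fragments in the TRiC pulldown than before it. Each was called lower at an adjusted p under 0.05 by edgeR's quasi-likelihood test, whereas 10.6% of the 17934 genes tested were called lower in this comparison. Both pulldown CPM values lay under both input values for all 7, as they did for 31.2% of the genes tested. The median log2 fold change (log2FC, pulldown over input) of the members was −1.93, against −0.0032 for all genes tested. Of the members, 6 ranked among the 35 lowest of the 11778 genes that averaged at least 100 counts, and MT-ND6 was at rank 122.

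MT-ND3 fell furthest. It was at 265 and 300 CPM in TRiC inputs and at 30.0 and 39.1 CPM in the pulldowns, which is 8.22-fold lower (log2FC −3.04 with a standard error, SE, of 0.11, adjusted p = 1.89e-12 in edgeR). MT-ND1 went from 307 and 316 CPM to 41.7 and 68.5 CPM, a log2 ratio of −2.50 (SE 0.15, adjusted p = 2.11e-09 in edgeR). Its pulldown replicates were the furthest apart of the 7, with log2 ratios of −2.88 in pair 1 and −2.20 in pair 2. MT-ND2 was at 140 and 161 CPM as input and at 25.6 and 28.4 CPM after pulldown, a log2 ratio of −2.48 (SE 0.10).

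The other antiporter-like subunits and MT-ND4L had values closer to 0 than MT-ND2; differences between members were not tested. MT-ND4 stood at 373 and 409 CPM as input and 96.4 and 109 CPM after pulldown (log2FC −1.93, SE 0.08). MT-ND5, the most abundant member, went from 1093 and 1287 CPM to 303 and 365 CPM (log2FC −1.83, SE 0.09). MT-ND4L, upstream of MT-ND4 on the shared mRNA, went from 61.4 and 75.1 CPM to 20.0 and 24.1 CPM (log2FC −1.63, SE 0.12). Pair 1 and pair 2 differed by at most 0.044 on the log2 scale for each of these 3 genes, and no gene of the 3 had overlapping input and pulldown values.

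MT-ND6 fell least. The single minus-strand member was at 94.5 and 98.0 CPM in TRiC inputs and at 57.8 and 55.4 CPM in the pulldowns. This is 1.70-fold lower (log2FC −0.77, SE 0.09, adjusted p = 2.43e-05 in edgeR), with pair values of −0.71 and −0.82. The call was lost against a 1.5-fold change (adjusted p = 0.238, edgeR's glmTreat) and with all 8 libraries in one fit (adjusted p = 0.0761 in edgeR), where MT-ND4L was lost too (adjusted p = 0.162 in edgeR). Ordered by the mean of the pairs, the members ran MT-ND3, MT-ND1, MT-ND2, MT-ND4, MT-ND5, MT-ND4L and MT-ND6, and MT-ND1 and MT-ND2 were the only neighbours whose pair values overlapped. Within the members' own counts, MT-ND6 made up 4.05 and 3.70% of them before and 10.1 and 8.04% after pulldown. The share of MT-ND3 went the other way, from 11.4 and 11.3% to 5.22 and 5.67%. On the minus strand lie also 8 tRNA genes, whose summed counts were 123 and 168 in TRiC inputs and 110 and 163 in the pulldowns, nearly all from MT-TP (10 counts or fewer in a TRiC library without it). In the PFD line they were 61 and 48 in inputs and 116 and 254 in the pulldowns. The 14 plus-strand tRNA genes had 661 and 837 counts in TRiC inputs and 319 and 337 in the pulldowns. In the PFD line these had 1206 and 561 in inputs and 592 and 281 in the pulldowns. All are counts not scaled to library size, left after removal of reads matching non-coding RNA. Their bearing on MT-ND6 was not tested.

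**Figure D2:**
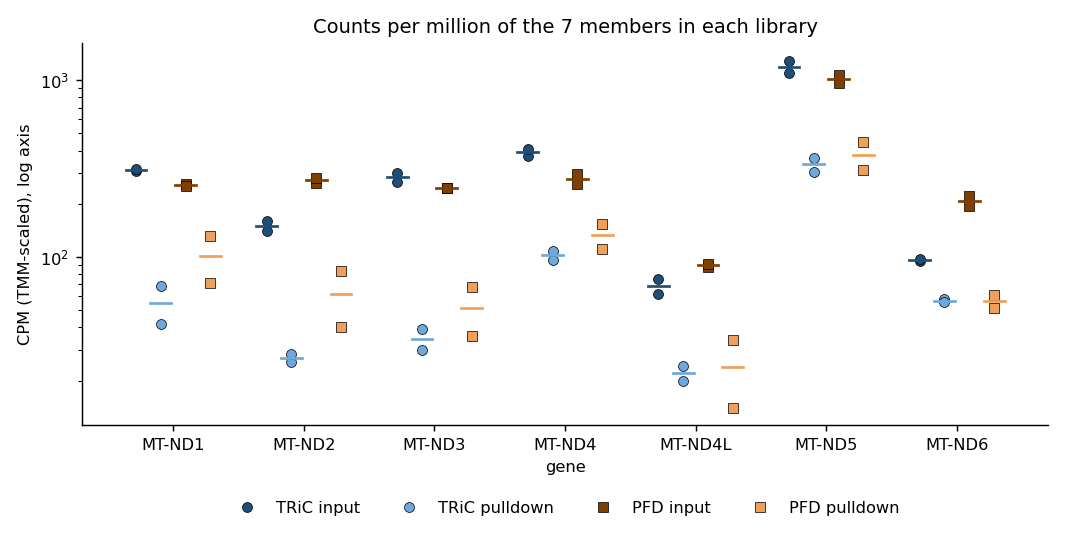
CPM (log axis) of each member in every library; points are libraries, short lines are means of the 2 replicates, blue is the TRiC and brown the PFD line, dark is input and light is pulldown. Every pulldown point lies under both input points of its line and gene, and MT-ND6 has the smallest gap in the TRiC line.

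In the PFD pulldown the members' values were below the inputs as well, with a wider spread between replicates. Calls in edgeR's quasi-likelihood test were made for 3 of the 7, MT-ND3, MT-ND5 and MT-ND6, and 0.191% of the 14111 genes tested were called lower. All 7 had both pulldown values under both input values, as did 20.4% of the genes tested. An unadjusted p under 0.05 was found for all 7 and for 978 of the 14111 genes. The median log2FC of the members was −1.88, against −0.00048 for all genes tested. Among 10140 genes averaging at least 100 counts in PFD libraries, the members ranked from 44 (MT-ND3) to 267 (MT-ND4) from the lowest, with MT-ND5 at 125 and MT-ND1 at 150. The common dispersion in edgeR, a squared coefficient of variation between replicates, was 0.331 for PFD and 0.0153 for TRiC.

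MT-ND6 had the lowest adjusted p here. Its values were 220 and 193 CPM in PFD inputs and 61.1 and 51.7 CPM in the pulldowns, 3.67-fold lower (log2FC −1.88, SE 0.17, adjusted p = 0.00973 in edgeR), and its pair values of −1.85 and −1.90 were the closest of the 7. MT-ND5 went from 961 and 1064 CPM to 445 and 310 CPM (log2FC −1.43, SE 0.17, adjusted p = 0.0218 in edgeR). MT-ND3 went from 246 and 245 CPM to 67.5 and 35.9 CPM, a log2 ratio of −2.26 (SE 0.28, adjusted p = 0.0301 in edgeR).

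The remaining 4 did not pass the threshold. MT-ND2 was at 263 and 280 CPM in PFD inputs and at 83.3 and 40.3 CPM in the pulldowns (log2FC −2.15, SE 0.31, adjusted p = 0.0560 in edgeR). MT-ND4L was at 88.4 and 91.8 CPM against 33.9 and 14.1 CPM (−1.93, SE 0.40), the member with the widest gap between pairs, 1.32 on the log2 scale. MT-ND1 was at 259 and 251 CPM against 132 and 70.9 CPM (−1.34, SE 0.27). MT-ND4 was at 259 and 296 CPM against 155 and 111 CPM (−1.07, SE 0.18). Inputs agreed closely in these genes, and pulldown replicate 1 was higher than replicate 2 for every member. The members' median pair ratio was −1.38 in pair 1 and −1.90 in pair 2. With any 1 of the 4 PFD libraries left out, 7 members were called lower, but such a fit has 1 library in a group, takes its spread from the other group alone and is no sign of stability.

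**Figure D3:**
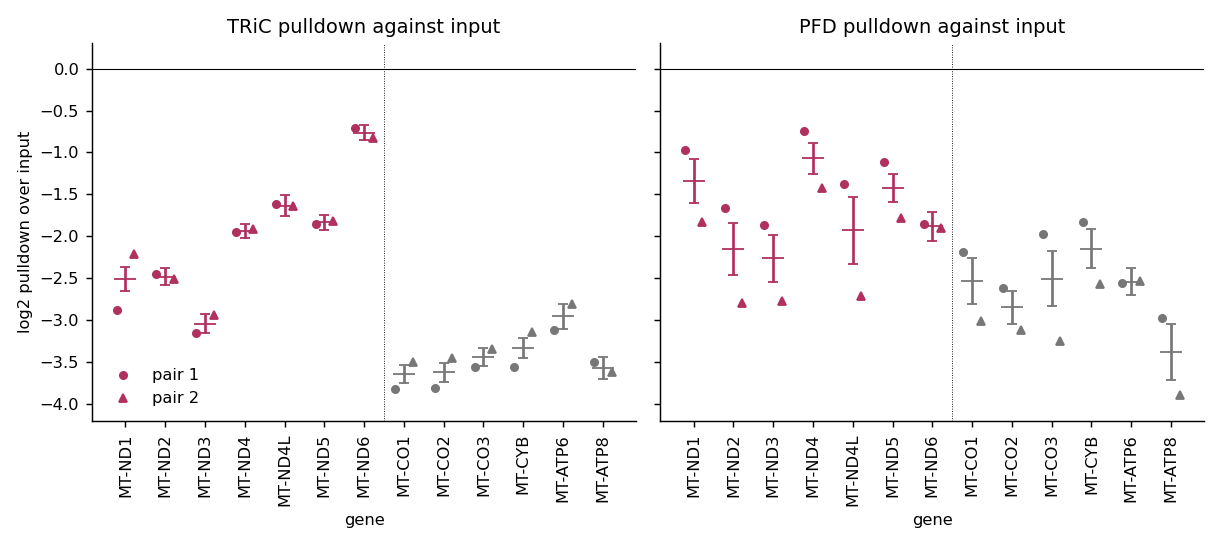
Log2 ratio of pulldown over input for the 7 members (red) and the other 6 mitochondrially encoded protein genes (grey), in the TRiC line (left) and the PFD line (right); horizontal ticks with bars are edgeR estimates ± standard error, circles and triangles are the same-numbered pairs. In the TRiC line the other 6 genes lie between −3.64 and −2.95, and of the members MT-ND3 alone reaches that range.

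**Figure D4:**
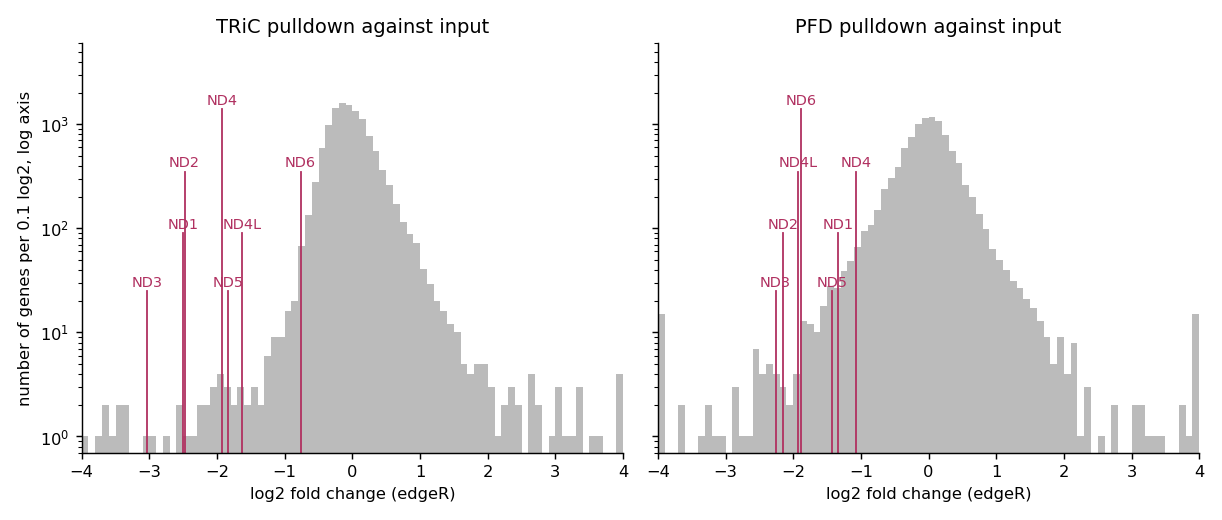
Number of genes per bin of 0.1 in log2FC (log axis), over genes averaging at least 100 counts in TRiC (left) or PFD (right) libraries, with the members as red lines; line height has no meaning, and the end bins hold genes beyond the axis. The first percentiles are −0.77 (TRiC) and −1.54 (PFD); MT-ND6 in the TRiC line and MT-ND5, MT-ND1 and MT-ND4 in the PFD line lie above them, and the other members below.

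The question whether a member fell differently with TRiC than with PFD was tested as an interaction over all 8 libraries. That fit takes 1 spread for both lines, although the common dispersion was 0.331 for PFD and 0.0153 for TRiC when fitted apart. Its standard errors and p-values therefore do not describe the spread of either line alone. None of the 7 was called in edgeR's quasi-likelihood test at an adjusted p under 0.05, as 0.0371% of 18855 genes were in either direction. An unadjusted p under 0.05 was found for 3 members and for 2791 of the 18855 genes. MT-ND6 had the most positive difference, with a log2FC 1.13 higher with TRiC than with PFD (SE 0.17, adjusted p = 0.105 in edgeR). MT-ND1 (−1.13, SE 0.39, adjusted p = 0.264 in edgeR) and MT-ND4 (−0.84, SE 0.20, adjusted p = 0.175 in edgeR) had lower values with TRiC than with PFD. DESeq2 called MT-ND4 and MT-ND6, with adjusted p-values of 0.0117 and 4.28e-06. The share of all genes that DESeq2 called is not given here. With PFD pulldown replicate 1 left out, that group held 1 library, and the edgeR differences were 1.21 (MT-ND6), −0.68 (MT-ND1) and −0.63 (MT-ND4). Without PFD pulldown replicate 2 they were 1.07, −1.48 and −1.015.

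Before any pulldown, the inputs of the lines already differed in the members. Between TRiC and PFD inputs, MT-ND4 and MT-ND1 were called higher and MT-ND6, MT-ND2 and MT-ND4L lower in the TRiC input by edgeR's quasi-likelihood test, where 22.6% of 16341 genes were called higher and 17.7% lower. The differences were 0.46 for MT-ND4 (SE 0.08), 0.25 for MT-ND1 (0.06), −0.43 for MT-ND4L (0.12), −0.89 for MT-ND2 (0.09) and −1.14 for MT-ND6 (0.10) on the log2 scale. MT-ND3 (0.17) and MT-ND5 (0.20) did not pass the threshold. Against a 1.5-fold change, MT-ND2 and MT-ND6 were the calls that remained. MT-ND6 thus started from 96.3 ± 2.47 CPM (SD, n = 2) in the TRiC and 207 ± 18.8 CPM (SD, n = 2) in PFD inputs. Its pulldown levels were 56.6 ± 1.65 CPM (SD, n = 2) with TRiC and 56.4 ± 6.66 CPM (SD, n = 2) with PFD, and these ranges overlapped. These CPM values were scaled within each line, and no fit compared the pulldown levels of the lines directly.

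The members took a larger part of the mitochondrially encoded fragments in the pulldowns than in the inputs. Of the counts on all 13 mitochondrially encoded protein genes, the 7 members held 35.7 and 36.4% in TRiC inputs and 62.7 and 59.5% in TRiC pulldowns. The values were 41.8 and 43.4% in PFD inputs and 57.3 and 60.6% in PFD pulldowns. Every pulldown was above every input, and counting error (95% exact Clopper-Pearson intervals) was at most 0.775 percentage points to either side. A two-sided exact permutation of pulldown and input within each line gave p = 0.0556, the smallest that these 8 libraries allow. The other 6 genes encode cytochrome b of complex III, 3 subunits of complex IV and 2 of ATP synthase. In the TRiC pulldown their log2FC values lay between −3.64 (MT-CO1) and −2.95 (MT-ATP6), and all 6 were called lower in edgeR. Their PFD values lay between −3.38 (MT-ATP8) and −2.15 (MT-CYB), again with 6 called.

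Set against the summed counts of those 6 genes, each member was higher in both pulldowns than in both inputs of its line. MT-ND5 was at 26.0 and 27.8 counts per 100 counts of the 6 genes in TRiC inputs and at 88.8 and 77.9 in the pulldowns. MT-ND6 was at 2.25 and 2.12 per 100 in TRiC inputs and 16.9 and 11.8 in the pulldowns, and at 6.87 and 6.13 in PFD inputs and 8.40 and 12.5 in the pulldowns. MT-ND3 moved least, from 6.33 and 6.49 to 8.78 and 8.34 per 100 with TRiC and from 7.68 and 7.76 to 9.29 and 8.71 with PFD. On this scale 98.1% of all genes tested for TRiC and 81.5% for PFD had pulldown values above both inputs, since the 6 reference genes fell. The members' count is close to these shares, and it compares each member with the 6 genes alone.

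With library sizes set to the sum of those 6 genes, edgeR called 6 members higher in the TRiC pulldown (98.4% of all genes were called higher) and 2 in the PFD pulldown (71.2% of all genes). The TRiC values ran from 0.92 for MT-ND1 to 2.72 for MT-ND6 on the log2 scale, and MT-ND3 was at 0.42 (SE 0.31, adjusted p = 0.173 in edgeR). In the PFD pulldown the calls were MT-ND4 at 1.46 (SE 0.44, adjusted p = 0.0107 in edgeR) and MT-ND1 at 1.14 (SE 0.42, adjusted p = 0.0299 in edgeR). The number of calls moved both ways when 1 library was left out, in fits that take the spread from the other group alone. Without a pulldown replicate there were 7 in the TRiC line, whichever was left out, and 4 or 5 in the PFD line. Without TRiC input replicate 1 there were 2 calls and without replicate 2 there were 3, and without either PFD input edgeR called 0, with 0 members at an unadjusted p under 0.05. With all libraries in, 3 members had an unadjusted p under 0.05 in the PFD pulldown. The share of all genes called with 1 library left out is not given here. The moves in the number of calls need therefore not be particular to the members.

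Seen over the whole library, the 7 members together took 0.225 and 0.265% of all counts in TRiC inputs and 0.232 and 0.246% in PFD inputs. Their share was 0.0588 and 0.0697% in TRiC pulldowns and 0.0954 and 0.0634% in PFD pulldowns. Input shares of the lines lay close together, and every pulldown was below every input (two-sided exact permutation within lines, p = 0.0556, the smallest possible here). MT-ND5 supplied the largest part of the member counts, from 41.9 to 52.9% over the 8 libraries. The 16S rRNA of the mitochondrial ribosome, MT-RNR2, moved in the same direction, with 8922 and 8831 CPM in TRiC inputs and 719 and 901 CPM in TRiC pulldowns. In the PFD line MT-RNR2 was at 3842 and 3223 CPM as input and 1635 and 791 CPM after pulldown. Its log2FC was −3.46 (SE 0.08) with TRiC and −1.54 (SE 0.29, adjusted p = 0.169 in edgeR) with PFD. Reads matching non-coding RNA had been removed before counting, so these counts are a remainder, and the part of mitochondrial ribosome content in the members' values was not tested.

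**Figure D5:**
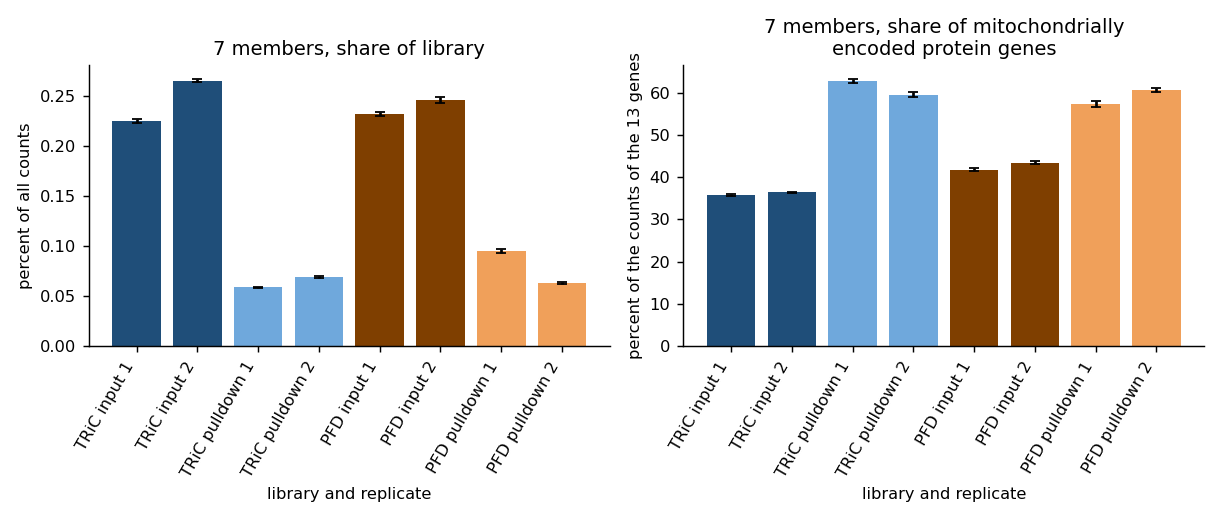
Left, percent of all counts on the 7 members; right, percent of the counts of the 13 mitochondrially encoded protein genes on the 7 members; bars are libraries and error bars 95% exact Clopper-Pearson intervals, which cover counting error only. The members' share of the library is smaller, and their share of the 13 genes larger, in every pulldown than in every input.

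In the pulldowns the highest mean density was 7.13 times the lowest with TRiC, against 5.68 times in its inputs, and 3.51 times with PFD, against 3.53 times in its inputs. MT-ND5 had the highest mean, at 0.554 CPM per codon with TRiC and 0.626 with PFD. MT-ND6 moved up in the order, from the sixth place in TRiC inputs to the second after pulldown (0.324), next to MT-ND3 (0.300), with overlapping replicates. MT-ND2 was the least dense in both pulldowns, at 0.0778 CPM per codon with TRiC and 0.178 with PFD. In the PFD pulldown every member overlapped its neighbours in the order, so that order is not resolved by these replicates.

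Copies of mitochondrial sequence in the nuclear genome limit these counts, since a read that also matches such a copy is not unique. Of all 30-base windows of a member, the share found also in a nuclear chromosome of hg38 was largest in MT-ND2 (58.0%), followed by MT-ND1 and MT-ND6 (34.3% each), MT-ND4 (23.0%), MT-ND4L (17.9%), MT-ND5 (17.2%) and MT-ND3 (4.73%). The effect of this on each member's density was not tested. In that order of members, the TRiC log2FC values were −2.48, −2.50, −0.77, −1.93, −1.63, −1.83 and −3.04. Their relation to this share was not tested. The table of counts also held 217 pseudogenes named after the MT-ND genes. Their summed counts equalled between 1.06 and 5.00% of the member counts of a library.

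The most abundant of these pseudogenes was MTND2P28 (chromosome 1, 629640 to 630683), which has 1025 of 1042 bases in common with MT-ND2. It had 147 and 190 counts in TRiC inputs, 27 and 33 in TRiC pulldowns, 952 and 519 in PFD inputs and 68 and 132 in PFD pulldowns. Like MT-ND2 it was called lower in edgeR in the TRiC pulldown (log2FC −2.46, SE 0.35), and its PFD value was −3.07 (SE 0.39, adjusted p = 0.0326 in edgeR). Between the inputs it was lower in the TRiC line by a log2 ratio of −3.13 (SE 0.17), against −0.89 for MT-ND2. Reads of the gene and its copy may be split between them, so the MT-ND2 difference between the inputs is uncertain.

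The nuclear-encoded partners are translated by cytosolic ribosomes, and their medians lay closer to 0 than those of the members. Of 37 nuclear genes of complex I subunits tested in the TRiC libraries, 22 were called lower and 1 higher in edgeR, with a median log2FC of −0.32 against −0.0032 for all genes. Of all 17934 genes tested, 10.6% were called lower, and the share called higher is not given here. Their values ran from −0.74 to 2.19, and the highest did not pass the threshold. NDUFB7 had the lowest called value (−0.74, SE 0.11), followed by NDUFS7 (−0.69, SE 0.11), which carries an iron-sulphur cluster next to the ubiquinone site. NDUFA13 was the 1 call upward (0.86, SE 0.23, adjusted p = 0.0140 in edgeR), at 4.61 and 3.99 CPM as input and 7.43 and 8.21 CPM after pulldown. Among the other core subunits, NDUFS8 (−0.48) and NDUFS3 (−0.26) were called lower. NDUFS1 (−0.11), NDUFV1 (−0.24) and NDUFV2 (0.56), whose products carry electrons from NADH, did not pass the threshold. MT-ND6, with the smallest fall of the members, was at −0.77, next to the lowest of the 37 nuclear genes at −0.74 and within 1 SE of it.

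In the PFD pulldown 36 of these genes were tested and none was called in edgeR (2 had an unadjusted p under 0.05). Their median was −0.029 and their values ran from −1.30 to 0.64, so that the lowest was below MT-ND4 (−1.07). The core subunits named above lay between −0.17 (NDUFS1) and 0.25 (NDUFV2). Together the 37 genes took 0.331 and 0.338% of counts in TRiC inputs and 0.285 and 0.262% in TRiC pulldowns. The PFD shares were 0.249 and 0.248% before and 0.235 and 0.221% after pulldown. In both lines the nuclear subunits thus kept most of their share of the library in the pulldown, in the libraries in which the members' share dropped.

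Of 19 assembly factors of complex I, 7 were called lower and 2 higher in the TRiC pulldown by edgeR, with a median of −0.24. For this list and the next, the share of all 17934 genes called lower was 10.6%, and the share called higher is not given here. The lists were not tested as sets. DMAC1 (−0.68) and NDUFAF2 (−0.60) were the lowest calls, and NDUFAF7 (0.39), a methyltransferase that modifies a core subunit, and COA1 (0.33) the highest. Among 22 factors of mitochondrial translation and mRNA handling, 4 were lower and none higher, with a median of −0.039. TACO1, a translational activator of MT-CO1, was at −0.43 (SE 0.14, adjusted p = 0.0335 in edgeR), and the elongation factor TUFM at −0.36 (SE 0.08, adjusted p = 0.00429 in edgeR). Neither list had a call in the PFD pulldown in edgeR, where 0 assembly factors and 2 translation factors had an unadjusted p under 0.05. Their PFD medians were −0.19 and −0.087.

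Of 11260 genes averaging at least 100 counts over the 8 libraries, those whose log2 CPM most resembled the members' mean were all mitochondrially encoded. They were MT-ATP8 (Pearson r = 0.996 over 8 libraries), MT-CO2 (0.992), MT-CO3 (0.979), MT-CYB (0.977) and MT-ATP6 (0.974). The 8 points come from 4 inputs and 4 pulldowns that stand apart, so these values describe mainly the gap between input and pulldown. No p-value is given for them.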

How the data were processed

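The deposited values are whole-number gene counts, which the authors obtained with UMI-tools, Bowtie2 2.4.2 (removal of reads matching non-coding RNA) and STAR 2.7.10a on hg38, keeping unique alignments with at most 2 mismatches and no normalization. The annotation release and the strand setting are not given in the sources used here. Of 60664 identifiers, 60463 matched GENCODE release 44, the source of names and positions. Samples were grouped by their labels, and 0 sample columns went unused. Totals ranged from 9523128 to 32637658 counts.

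Pulldowns were tested against inputs of their own line, and TRiC inputs against PFD inputs, with edgeR 4.0.16 in R 4.3.3 (TMM, filterByExpr, quasi-likelihood test, Benjamini-Hochberg adjustment over all genes tested, no replicate block). The difference between pulldowns was an interaction over 8 libraries. Pair ratios used a prior count of 0.5. Standard errors are the log2 fold change divided by the square root of the F statistic. Alternatives included DESeq2 1.42.0 and limma 3.58.1. Fits were tested on simulated data. Scaling to the other 6 mitochondrially encoded protein genes was an alternative chosen after seeing the data.

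The members, gene lists and tests were chosen with earlier results of these data known. Named genes were all members, 7 core nuclear subunits, and up to 2 called genes per direction of each list. Among the genes picked this way, 1 is not reported here. The other 6 mitochondrially encoded protein genes, the 5 genes most like the members, MT-RNR1, MT-RNR2, MT-TP and MTND2P28 were also named. MT-RNR1, MT-RNR2 and MT-TP were named after their values were seen. Deviations of same-numbered libraries from their group means correlated at 0.0587 (TRiC) and −0.0089 (PFD) across genes, so the numbers were not taken to pair libraries.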

Additional observations from a re-analysis of the deposited data

How the results depend on the processing

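Scaling to the other 6 mitochondrially encoded protein genes put all 7 members above 0 in both pulldowns. Under every other alternative run all 7 stayed below 0 in the TRiC pulldown, and 5 to 7 were called lower. All 7 were also below 0 in the PFD pulldown under every alternative but that scaling. The number called, 3 in the comparison as designed, depended on the setting. It was 7 with a replicate block, with cyclic loess and limma-trend, without a filter on low counts and with at least 10 counts in every library, 5 with DESeq2 and with all 8 libraries in one fit, and 1 by glmTreat against a 1.5-fold change. Leaving out 1 PFD library in turn gave 7 each time, in fits where 1 group is a single library assumed to vary like the other, so these counts do not show stability. For the difference between the pulldowns, with 0 members called as designed and also with a replicate block, DESeq2 called 2 and the fit without a filter 4. With 1 library left out in turn, the difference of MT-ND2 ranged from −0.70 to 0.25, positive without PFD pulldown replicate 1. That of MT-ND4L ranged from −0.15 to 1.02, negative without PFD pulldown replicate 2. Between the inputs 5 members were called, 6 with a replicate block, and 2 by glmTreat and with all 8 libraries in one fit. Same-numbered libraries were not shown to be paired, and the block was run for completeness. Relative to the other 6 genes, the calls lay between 2 and 7 (TRiC) and between 0 and 5 (PFD) with 1 library left out. Library totals without TMM moved the members' median ratio in TRiC pair 1 from −1.95 to −1.87. Gene length in place of codons left the MT-ND3 density in the PFD inputs at 2.13 CPM per codon after rounding, a change larger than its replicate SD that follows from using 346 bases in place of 115 codons. The cause of the other shifts was not tested. For alternatives other than the scaling to the other 6 genes, the share of all genes called is not given here. Nor is it given with 1 library left out. A change in the number of members called need therefore not be particular to them. The 2 replicates per group limit every test here.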
